A study of Mus musculus with 6 samples.

Results

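Hox genes of the 4 mouse Hox clusters were followed in skin of wild type mice and of mice carrying a targeted allele of Hoxc13, a Hox gene of the hair follicle. Members were taken by name: every measured gene called Hoxa, Hoxb, Hoxc or Hoxd plus a number, with Hoxc13 set aside, which gave 32 genes among 16331 probe sets. They comprised 9 Hoxa, 9 Hoxb, 5 Hoxc and 9 Hoxd genes. RefSeq lists 39 Hox genes in the mouse, of which 6 were not analysed here. The 3 wild type and 3 mutant samples were dissected skin labelled as male C57BL/6 with 5 dpn in the titles, and the mutant genotype is given as Hoxc13 knockout, allele Hoxc13tm1Mrc. Neither zygosity nor the body site of the skin is stated in the labels. Affymetrix arrays were hybridised with RNA from each sample, and levels are log2 values after RMA, a background correction and between-array normalisation.

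Hox genes encode homeodomain transcription factors that lie in 4 clusters, and genes at the same relative place in different clusters form a paralog group, numbered from 1 to 13. Genes of low-numbered groups are used towards the head of the embryo and those of high-numbered groups further back and towards the limb ends, a correspondence between gene order and body position called collinearity. In the adult, skin cells, dermal fibroblasts above all, keep a Hox expression pattern that depends on where on the body they lie, while Hoxc13 acts in the hair and nail matrix.

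Promoters were drawn from RefSeq (GRCm38.p6), which held an entry for 21 of the 32 genes. Each sequence covers the 250 bases before the annotated start, 5′ to 3′ on the strand of the gene. Those of Hoxd9 and Hoxa2 are shown because these genes had the smallest p-values between the groups, that of Hoxc4 because the gene lies in the cluster of the targeted gene, and that of Hoxb8 because it held matches to 2 of the 3 motifs searched, which are of the kind bound by group 13 proteins. They lie at chr2:74697513-74697762, plus strand (Hoxd9), chr6:52164832-52165081, minus strand (Hoxa2), chr15:103034145-103034394, plus strand (Hoxc4) and chr11:96281655-96281904, plus strand (Hoxb8). Capitals mark matches to the motif TTTACGA, to a variant with the letters TTTATTG, or to another spelled TTTATGG, on either strand.
Hoxd9: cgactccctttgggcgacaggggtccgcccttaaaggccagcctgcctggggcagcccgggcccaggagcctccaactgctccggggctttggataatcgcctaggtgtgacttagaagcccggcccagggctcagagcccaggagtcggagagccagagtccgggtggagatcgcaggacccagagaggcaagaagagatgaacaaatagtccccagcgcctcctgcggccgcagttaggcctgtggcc
Hoxa2: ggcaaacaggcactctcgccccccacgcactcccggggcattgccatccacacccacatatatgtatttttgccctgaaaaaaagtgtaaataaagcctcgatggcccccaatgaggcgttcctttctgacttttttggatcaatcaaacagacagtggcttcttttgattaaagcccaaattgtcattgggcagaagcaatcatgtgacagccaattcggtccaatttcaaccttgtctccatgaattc
Hoxc4: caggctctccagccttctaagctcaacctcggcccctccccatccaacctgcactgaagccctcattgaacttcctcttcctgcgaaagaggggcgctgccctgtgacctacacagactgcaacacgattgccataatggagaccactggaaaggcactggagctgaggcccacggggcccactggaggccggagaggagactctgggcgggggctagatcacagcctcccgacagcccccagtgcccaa
Hoxb8: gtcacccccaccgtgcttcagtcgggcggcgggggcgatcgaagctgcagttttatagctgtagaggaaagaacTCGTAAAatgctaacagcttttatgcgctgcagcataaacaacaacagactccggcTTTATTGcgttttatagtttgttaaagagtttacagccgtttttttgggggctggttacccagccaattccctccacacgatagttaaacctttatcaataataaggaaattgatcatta

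TTTACGA was found in the promoter of Hoxb8 alone among the 21, starting 176 bases before its start on the reverse strand, against 0.478% of 32851 promoters. TTTATTG was also found in Hoxb8 alone, 120 bases before its start, against 4.2% of promoters. TTTATGG was found in Hoxd4 alone, 45 bases before its start, against 2.43%. The promoters of Hoxd9, Hoxa2 and Hoxc4 held none of these letters in this window. A match is a stretch of letters and not a measured site. The 21 Hox promoters had a median of 12 CpG dinucleotides and 55.6% G and C, against 6 and 52.4% for all promoters, and the range among those shown ran from 6 CpG in Hoxa2 to 13 in Hoxd9.

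The samples read as skin by their markers. All 9 dermal fibroblast markers, all 8 basal keratinocyte markers and all 6 markers of differentiated keratinocytes had a mean over the arrays above the reference level defined in the next paragraph. Xist, a transcript made from the inactive X chromosome, read 11.15 to 11.67 on the 6 arrays, and 5 Y-linked genes read 2.98 to 4.89, which goes against the label of male sex on every array. Mutant replicate 3 differed from its group, with correlations of 0.989 and 0.990 to mutant replicates 1 and 2 over all probe sets, against 0.997 between those, and values without it are given beside the results it moves. The targeted gene, Hoxc13, read 9.63, 9.81 and 9.83 in wild type and 8.95, 8.75 and 9.74 in mutant skin. Its difference of -0.61 (SE 0.23) did not pass limma (adjusted p = 0.293), and without mutant replicate 3 it was -0.90 (limma adjusted p = 0.00114). The sources used here do not say where its probes lie relative to the disrupted exon sequence, and the level is thus no check of the genotype labels.

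The arrays carry no detection calls, so a reference level was taken from 43 genes of other tissues, such as rhodopsin, insulin and protamine genes, as their 95th percentile on each array (6.4 to 6.62 on wild type arrays). Levels of different probe sets are not comparable as amounts, and being above this level is a description. In wild type skin, 13 of the 32 Hox genes lay above it on all 3 arrays. By cluster these were 3 of 9 Hoxa genes (Hoxa5, Hoxa7 and Hoxa9), 5 of 9 Hoxb genes (Hoxb2, Hoxb3, Hoxb4, Hoxb6 and Hoxb8), 2 of 5 Hoxc genes (Hoxc4 and Hoxc6) and 3 of 9 Hoxd genes (Hoxd4, Hoxd8 and Hoxd9). By paralog group they were 2 of 7 genes in groups 1 to 3, 9 of 12 in groups 4 to 8, 2 of 7 in groups 9 and 10, and 0 of 6 in groups 11 to 13. The same number, 13, lay above the level on all 3 mutant arrays. Against the highest Y-linked probe set as the reference (4.55 to 4.58 in wild type), 24 genes lay above it, so genes between these levels, among them Hoxd13 and Hoxa13, cannot be placed as present or absent here.

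**Figure D1:**
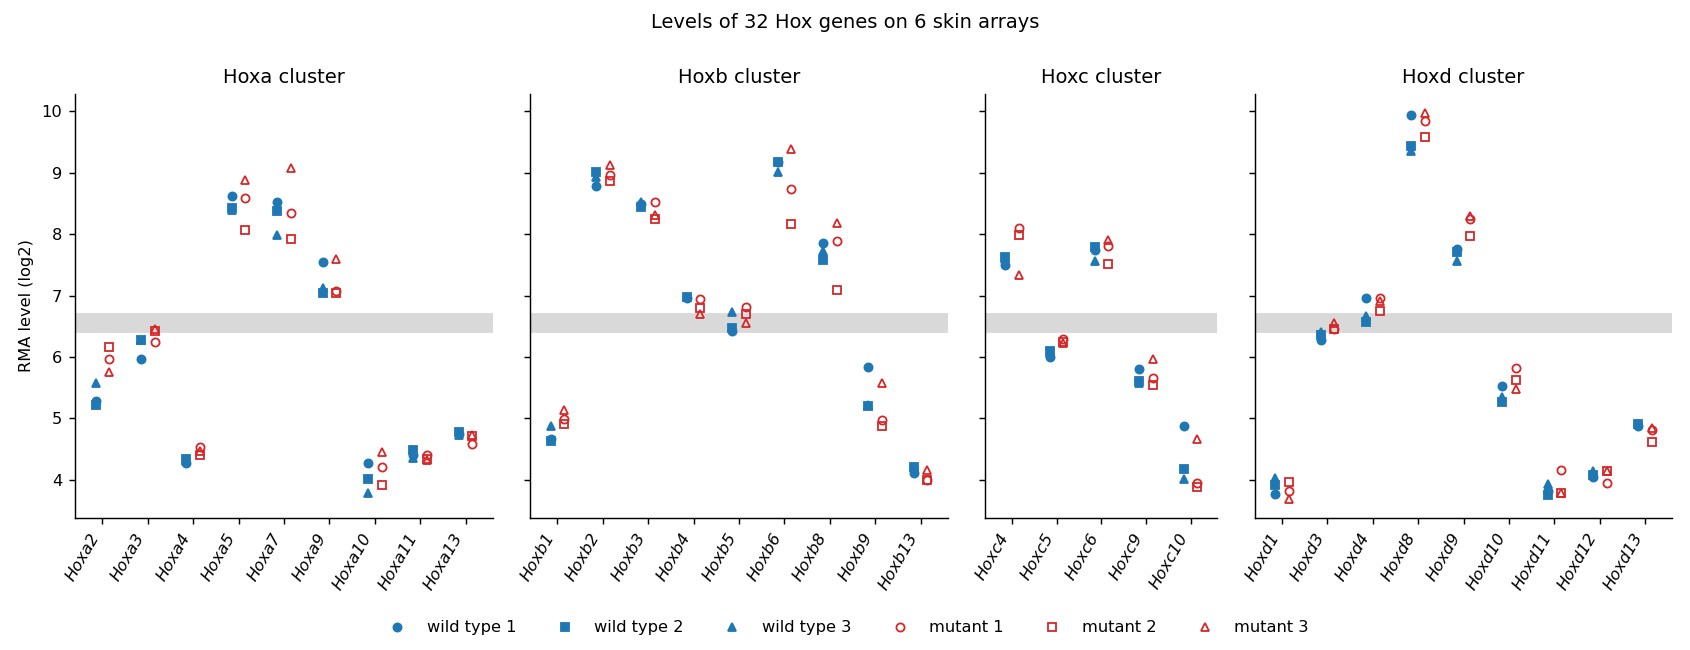
RMA levels (log2, vertical axis) of 32 Hox genes, by cluster and in order of paralog group, on the 3 wild type arrays (filled) and 3 mutant arrays (open). The grey band is the range over the 6 arrays of the reference level (6.4 to 6.7). Genes of groups 4 to 8 make up 9 of the 13 genes above it in wild type skin, and no gene of groups 11 to 13 reaches it.

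Among the genes of groups 1 to 3, which pattern the hindbrain and neck in the embryo, Hoxb2 read 8.78, 9.01 and 8.94 and Hoxb3 read 8.50, 8.44 and 8.52 in wild type skin. These were the members of groups 1 to 3 that stood above the reference level. Hoxd3 (6.28 to 6.41) and Hoxa3 (5.97 to 6.28) lay just under it, and Hoxd1 (3.76 to 4.03) was at the foot of the scale. In paralog group 3, Hoxb3 thus stood above the level and Hoxa3 and Hoxd3 below it.

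In groups 4 to 8, which pattern the neck and trunk, wild type means with SD (n = 3) were 8.48 ± 0.12 for Hoxa5, 8.29 ± 0.28 for Hoxa7, 9.11 ± 0.09 for Hoxb6, 7.72 ± 0.14 for Hoxb8 and 9.58 ± 0.31 for Hoxd8. Hoxb4 read 6.97 ± 0.01 and Hoxd4 6.73 ± 0.20. Hoxb5 (6.43 to 6.73) straddled the level, Hoxc5 (6.00 to 6.10) lay under it, and Hoxa4 (4.27 to 4.33) lay under the highest Y-linked probe set.

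In groups 9 and 10, which in the embryo act from the lower trunk backwards and in the limbs, Hoxd9 (7.57 to 7.76) and Hoxa9 (7.05 to 7.54) stood above the reference level. Hoxd10 read 5.27 to 5.53, Hoxb9 5.20 to 5.83, Hoxc9 5.57 to 5.80, Hoxc10 4.02 to 4.87 and Hoxa10 3.78 to 4.28. Genes of groups 11 to 13, which pattern the limb ends and the tail region, read between 3.75 (Hoxd11) and 4.91 (Hoxd13) on all wild type arrays. Hoxc13 itself read 9.63 to 9.83, and was thus the group 13 gene that lay above the reference level.

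None of the 32 Hox genes passed the test between mutant and wild type skin (limma, Benjamini-Hochberg adjusted p under 0.05 over all 16331 probe sets). Over all probe sets 2.08% passed, 0.478% higher and 1.6% lower. At an unadjusted p under 0.05, 6 of the 32 genes passed, all of them higher in mutant skin, against 8.44% of all probe sets higher and 14.4% in either direction. Mutant and wild type values were fully separated for 8 Hox genes, against 20.3% of all probe sets. Of these, 6 were higher (Hoxa2, Hoxa4, Hoxb1, Hoxc5, Hoxd3 and Hoxd9), against 12.5% of probe sets, and 2 were lower (Hoxb4 and Hoxd13), against 7.82%. The share of 8 in 32 is near this background. The median difference was 0.069 on the log2 scale, against 0.0247 for all probe sets, and the differences ran from -0.35 (Hoxb6) to 0.60 (Hoxa2). Without mutant replicate 3 the median turned to -0.0241, with 14 of 32 genes positive, against 0.016 for all probe sets. For all 32 genes the 95% interval of the difference lay within 1 log2 unit on either side of 0. The same held for 15818 of all 16331 probe sets. In bulk tissue, fewer cells of a type and less RNA per cell cannot be told apart.

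By cluster, the median difference was 0.164 for Hoxa, -0.124 for Hoxb, 0.0653 for Hoxc and 0.145 for Hoxd. Without mutant replicate 3 the medians of Hoxa and Hoxc changed sign, to -0.0447 and -0.0422, while those of Hoxb and Hoxd were -0.104 and 0.129. The groups did not overlap for 2 of 9 Hoxa, 2 of 9 Hoxb, 1 of 5 Hoxc and 3 of 9 Hoxd genes, against 20.3% of all probe sets. Of these Hoxb genes 1 was higher and 1 lower in mutant skin, and of these Hoxd genes 2 were higher and 1 lower. Those of Hoxa and Hoxc were higher. These medians were not tested against each other.

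**Figure D2:**
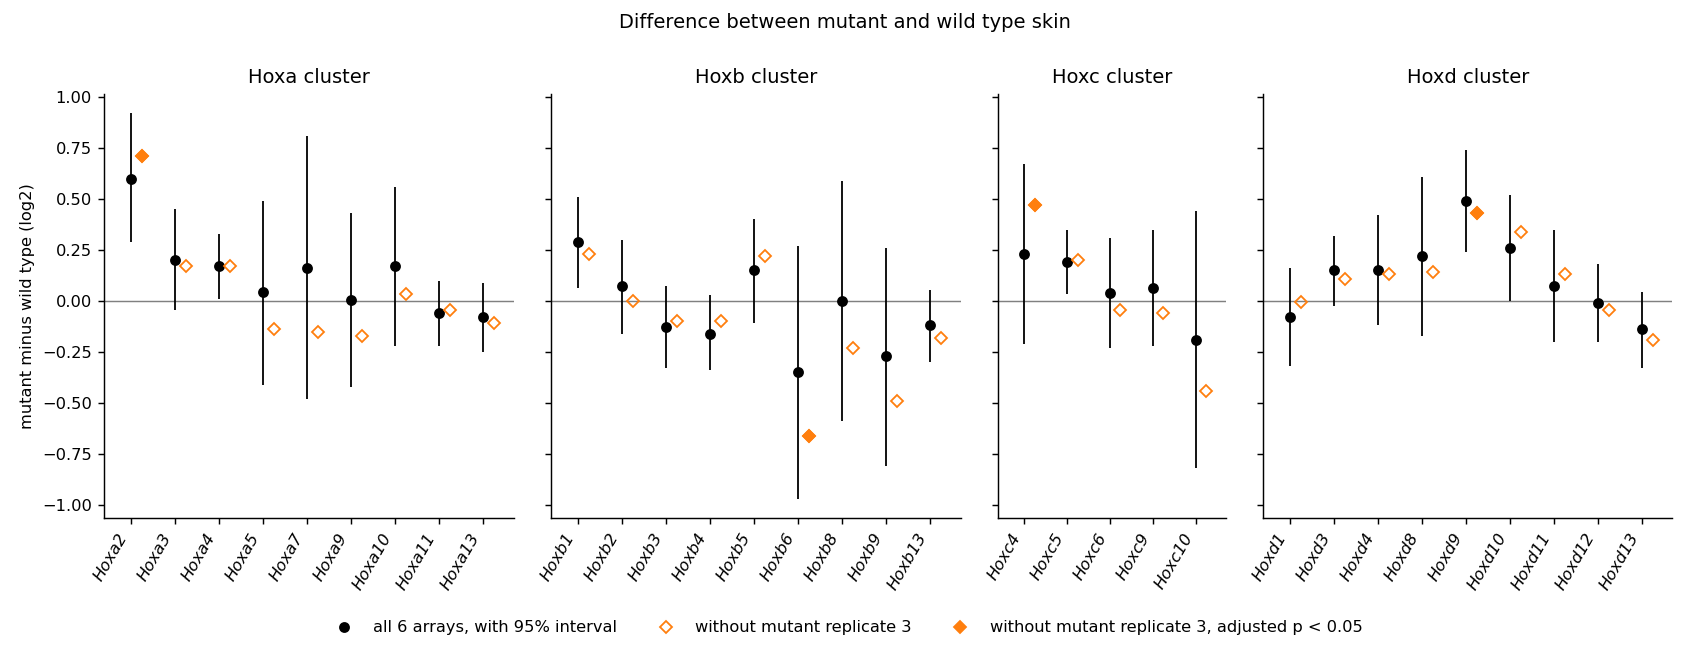
Mutant minus wild type difference (log2, vertical axis) of 32 Hox genes by cluster and paralog group. Black points are the fit on all 6 arrays with its 95% interval, and diamonds the fit without mutant replicate 3, filled where the adjusted p was under 0.05. Hoxa2 and Hoxd9 have the highest values with all arrays (0.60 and 0.49), and Hoxb6 moves from -0.35 to -0.66 without mutant replicate 3 (without mutant replicate 2, not plotted, it is -0.048).

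The Hoxc cluster, which holds the targeted gene, was represented by 5 genes besides Hoxc13. In RefSeq order from the Hoxc13 end these are Hoxc10, Hoxc9, Hoxc6, Hoxc5 and Hoxc4. None passed limma, and the differences were -0.19, 0.065, 0.039, 0.19 and 0.23 in that order.

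Hoxc10, the measured gene nearest to Hoxc13, read 4.87, 4.17 and 4.02 in wild type and 3.95, 3.88 and 4.66 in mutant skin. Wild type replicate 1 and mutant replicate 3 were the high arrays of their groups, and the groups overlapped. The difference of -0.19 had a 95% interval from -0.82 to 0.44 (limma adjusted p = 0.805). Without wild type replicate 1 it was 0.069, and without mutant replicate 3 it was -0.44 (limma adjusted p = 0.23).

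Hoxc9 read 5.80, 5.61 and 5.57 in wild type and 5.66, 5.55 and 5.97 in mutant skin, with overlapping groups (interval -0.22 to 0.35). Hoxc6 read 7.75, 7.79 and 7.56 against 7.80, 7.51 and 7.90, again with overlap (interval -0.23 to 0.31). For both genes mutant replicate 3 was the highest and mutant replicate 2 the lowest of the mutant arrays. Their differences turned to -0.058 and -0.042 without mutant replicate 3, and neither passed limma (adjusted p = 0.711 and 0.834).

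Hoxc5 read 6.00, 6.10 and 6.07 in wild type and 6.29, 6.24 and 6.22 in mutant skin. All mutant arrays lay above all wild type arrays, including mutant replicate 3. The difference was 0.19 (SE 0.067, interval 0.035 to 0.35) and did not pass limma (adjusted p = 0.248). All 6 values were below the reference level.

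Hoxc4, at the far end of the cluster, read 7.50, 7.63 and 7.59 in wild type and 8.10, 7.98 and 7.33 in mutant skin. Mutant replicates 1 and 2 lay above every wild type array and mutant replicate 3 below every wild type array. With all arrays the difference was 0.23 (SE 0.19, limma adjusted p = 0.625). Without mutant replicate 3 it was 0.47 (SE 0.076, limma adjusted p = 0.00787), and with limma array weights it was 0.41 (adjusted p = 0.0473). The weight of mutant replicate 3 was 0.234, against 1.23 to 1.44 for the other arrays. The weighted fit is thus close to leaving that array out and is no separate support. Without mutant replicate 1 it was 0.081 and without mutant replicate 2 it was 0.14 (limma adjusted p = 0.936 and 0.863).

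The other group 13 genes, which carry the homeodomains closest in family to that of Hoxc13, were Hoxa13, Hoxb13 and Hoxd13. All lay below the reference level on every array, and none passed limma. Hoxa13, a gene of the limb ends and the genital region, read 4.75, 4.78 and 4.73 in wild type and 4.58, 4.71 and 4.73 in mutant skin, a difference of -0.08 with an interval from -0.25 to 0.086. The groups touched at their closest arrays.

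Hoxb13, known from the prostate, tail and skin, read 4.11, 4.21 and 4.21 against 4.00, 4.00 and 4.16, a difference of -0.12 with an interval from -0.30 to 0.055. Mutant replicate 3 lay inside the wild type range. Hoxd13, a gene of the digits, read 4.88, 4.91 and 4.91 against 4.81, 4.62 and 4.84, a difference of -0.14 with an interval from -0.33 to 0.046 and no overlap between the groups. The upper limits of the intervals, 0.086 at most, bound how far these RMA values could be higher in mutant skin. RMA compresses differences near background, so these limits are for RMA values and not for transcript amounts.

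Hoxd9 had the smallest p of the 32 genes. It read 7.76, 7.71 and 7.57 in wild type and 8.25, 7.97 and 8.30 in mutant skin. Every mutant array lay above every wild type array, and all values stood above the reference level. The difference was 0.49 (SE 0.11, interval 0.24 to 0.74), short of the threshold (limma adjusted p = 0.0741). It passed without mutant replicate 3 (0.43, limma adjusted p = 0.0327), without mutant replicate 2 (0.59, limma adjusted p = 0.0444) and with array weights (0.45, limma adjusted p = 0.0245). The weights nearly leave out mutant replicate 3, so the weighted fit is no separate support. Hoxd9 had further alternatives that failed. It did not pass without any 1 of the other 4 arrays (0.44 to 0.53, limma adjusted p from 0.197 to 0.278), with a replicate block (0.153), without variance moderation (0.254) or against a log2 difference of 0.2 (0.515).

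Hoxa2, a gene of the second pharyngeal arch and hindbrain, read 5.29, 5.21 and 5.58 in wild type and 5.97, 6.17 and 5.75 in mutant skin. The groups did not overlap, and mutant replicate 3 was the lowest mutant array. The difference was 0.60 (SE 0.14, limma adjusted p = 0.0865), and without mutant replicate 3 it was 0.71 (limma adjusted p = 0.01). It did not pass without any 1 of the other 5 arrays (0.50 to 0.71, limma adjusted p from 0.104 to 0.314). All 6 values lay below the reference level.

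Hoxb1, a hindbrain gene, read 4.67, 4.63 and 4.87 in wild type and 4.99, 4.90 and 5.14 in mutant skin, a difference of 0.29 (limma adjusted p = 0.224). Hoxa4 read 4.27, 4.33 and 4.30 against 4.53, 4.41 and 4.47, a difference of 0.17 (limma adjusted p = 0.322). Neither gene showed overlap between the groups, and both lay below the reference level. Of the 6 genes with an unadjusted p under 0.05, the remaining member besides Hoxc5 was Hoxd10 (0.26, limma adjusted p = 0.347).

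Without mutant replicate 3, limma called 4 Hox genes, 3 higher (Hoxa2, Hoxc4 and Hoxd9) and 1 lower (Hoxb6), where 7.95% and 6.23% of all probe sets were called in these directions. The share of members called, 4 of 32, is near the background of 14.2%. Hoxb6, a trunk gene, read 9.17, 9.17 and 9.01 in wild type and 8.74, 8.17 and 9.39 in mutant skin, so that mutant replicate 3 was above and the other mutant arrays below every wild type array. Its difference went from -0.35 (SE 0.27) to -0.66 (SE 0.15, limma adjusted p = 0.0305) without that array, and to -0.048 (limma adjusted p = 0.952) without mutant replicate 2.

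The other members did not pass limma, and some had wide intervals. Hoxb8 differed by 0.00067 (interval -0.59 to 0.59) and Hoxa9 by 0.0067 (-0.42 to 0.43). Hoxb2 (0.073), Hoxb3 (-0.13) and Hoxb4 (-0.16), neighbours in the Hoxb cluster, had intervals that stayed between -0.34 and 0.30. Hoxd3 (0.15), Hoxd4 (0.15) and Hoxd8 (0.22) were at positive values, while Hoxd11 (0.075), Hoxd12 (-0.009), Hoxa11 (-0.059) and Hoxd1 (-0.077) lay near 0. Hoxa3 (0.20), Hoxa5 (0.042), Hoxa7 (0.16), Hoxa10 (0.17) and Hoxb5 (0.15) also lay at positive values, the interval of Hoxa7 running from -0.48 to 0.81. Hoxb9 differed by -0.27 (interval -0.81 to 0.26), and by -0.49 without mutant replicate 3 (limma adjusted p = 0.116).

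Within each group of arrays, most Hox genes of paralog groups 6 to 10 shared their highest array, and in mutant skin also their lowest. Of the 12 members in groups 6 to 10, a range chosen after the values were seen, 11 had their highest wild type value in wild type replicate 1. Among mutant arrays 11 of the 12 were highest in mutant replicate 3 and 11 were lowest in mutant replicate 2. Over all probe sets, 32.9% were highest in wild type replicate 1, 44.7% highest in mutant replicate 3 and 30.6% lowest in mutant replicate 2. The exceptions were Hoxc6 in wild type, highest in replicate 2, and Hoxd10 in mutant skin, lowest in replicate 3. These genes lie in all 4 clusters, and neighbouring genes of a cluster are not independent. With groups 5 to 9 in place of 6 to 10, the counts were 9, 10 and 10 of 12, and among the 7 genes of groups 6 to 10 above the reference level they were 6, 7 and 7.

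Hoxc10 was 0.77 higher in wild type replicate 1 than the mean of the other wild type arrays, Hoxb9 0.62, Hoxd8 0.54 and Hoxa9 0.45. In mutant replicate 3, Hoxa7 was 0.94 higher than the mean of the other mutant arrays, Hoxb6 0.93, Hoxc10 0.75, Hoxb8 0.69 and Hoxb9 0.66. Hoxb8 and Hoxb6 were 0.94 and 0.89 lower in mutant replicate 2 than the mean of mutant replicates 1 and 3. The median for the 12 genes was 0.281 in wild type replicate 1, 0.471 in mutant replicate 3 and -0.372 in mutant replicate 2, against -0.001, 0.022 and -0.009 for all probe sets.

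Outside groups 6 to 10 the orders were shared in part. Hoxa5 was highest in wild type replicate 1, highest in mutant replicate 3 and lowest in mutant replicate 2. In groups 1 to 3, 6 of 7 genes were highest in wild type replicate 3 and none in wild type replicate 1. Of the same 7 genes, 4 were highest in mutant replicate 3 and 4 lowest in mutant replicate 2, with Hoxb1, Hoxb2 and Hoxd3 among both. Hoxc4 was 0.71 lower in mutant replicate 3 than the mean of the other mutant arrays, and Hoxa2 0.31 lower. Hoxb4, Hoxb5 and Hoxc5 were also lowest in that array, while Hoxa4 and Hoxd4 were lowest in mutant replicate 2. Hoxd4 was also highest in wild type replicate 1, but among mutant arrays it was highest in replicate 1. The 6 genes of groups 11 to 13, all below the reference level, differed by at most 0.37 from the mean of the other arrays of their group. Of these 6 genes, 4 were highest in mutant replicate 3, but 0 were highest in wild type replicate 1 and 2 were lowest in mutant replicate 2.

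The spread of the members can be set against that of the array. The SD over wild type arrays had a median of 0.121 for Hox genes and 0.0825 for all probe sets. In groups 9 and 10 it was 0.252, and Hoxc10 (SD 0.454) had a larger wild type SD than 99.2% of probe sets and Hoxb9 (0.359) than 98.7%. At the other end Hoxb4 (0.0112) exceeded 1.46% of probe sets. In mutant skin Hoxb6 (0.608), Hoxa7 (0.579) and Hoxb8 (0.564) exceeded 98.8%, 98.6% and 98.5%.

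**Figure D3:**
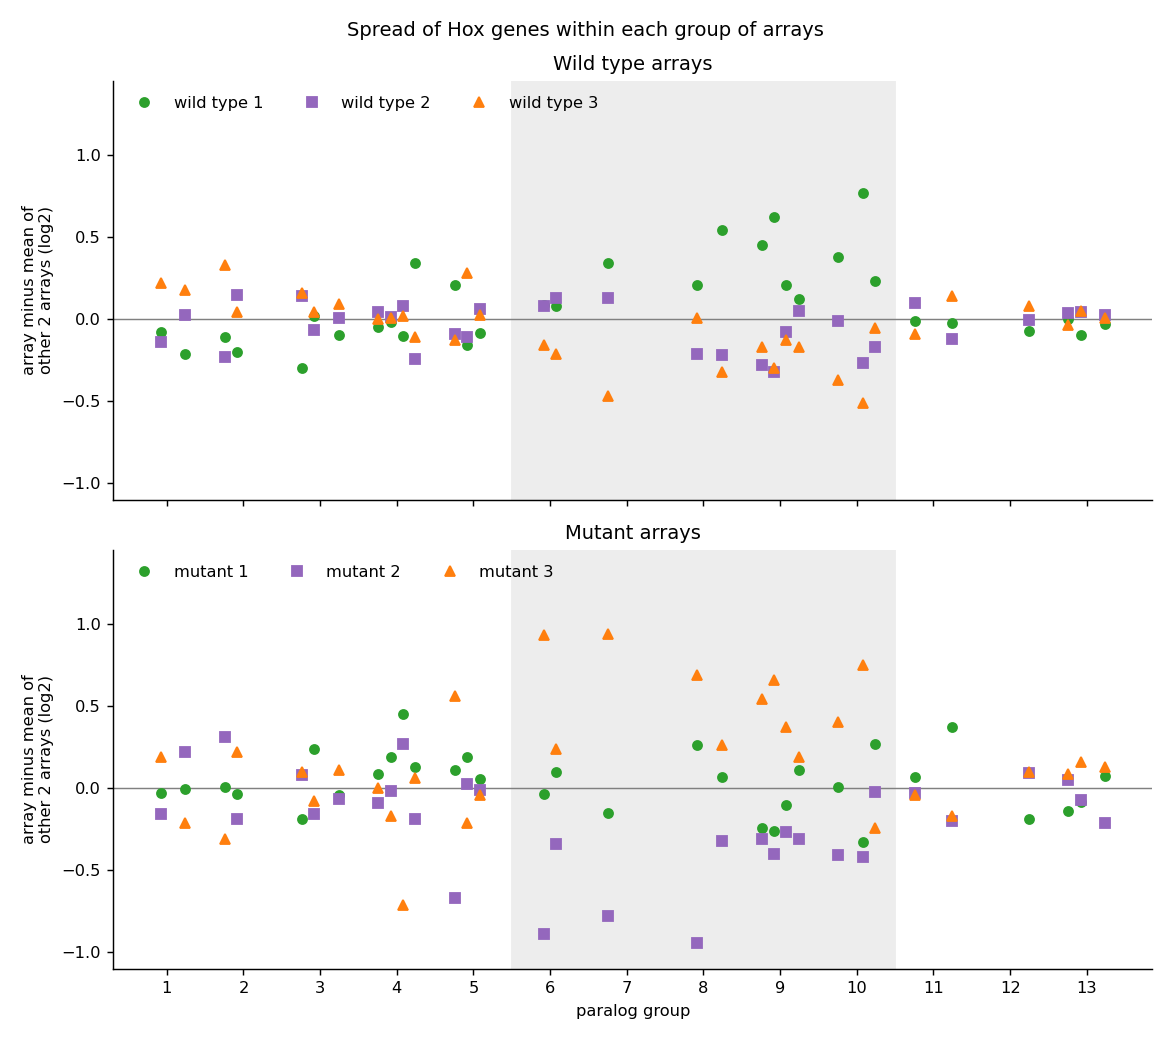
For each Hox gene, the level on an array minus the mean of the other arrays of its group (log2, vertical axis) by paralog group (horizontal axis), in wild type (top) and mutant skin (bottom). Points at a paralog group are offset by cluster from Hoxa to Hoxd. In the shaded groups 6 to 10, wild type replicate 1 and mutant replicate 3 lie above 0 for 12 and 11 of the 12 genes, and mutant replicate 2 lies below 0 for all 12.

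Markers of cell types also differed between these arrays. In mutant replicate 3, against the mean of the other mutant arrays, 0 of 8 skeletal muscle, 0 of 6 dermal papilla, 0 of 4 mast cell and 0 of 5 macrophage markers were higher, while 6 of 8 basal keratinocyte and 5 of 5 melanocyte markers were. Of all probe sets 53.8% were higher in that array. The counts were 0 of 6 for hair shaft, 0 of 4 for fat cell and 1 of 6 for differentiated keratinocyte markers. They were 2 of 5 for endothelium, 2 of 2 for Schwann cell and 1 of 1 for red blood cell markers. The mean over the dermal fibroblast markers was 11.69 to 11.82 in wild type and 11.71 to 12.01 in mutant skin, with 3 of 9 markers higher in mutant replicate 3 and 1 of 9 higher in wild type replicate 1. The mean over the muscle markers ran from 10.77 to 11.95 in wild type and from 11.41 to 12.55 in mutant skin. The mean over the hair shaft markers was 12.63 to 13.03 in wild type and 5.52 to 6.16 in mutant skin. In wild type replicate 1, 5 of 6 hair shaft, 3 of 6 differentiated keratinocyte and 3 of 8 muscle markers were above the mean of the other wild type arrays. So were 1 of 8 basal keratinocyte, 0 of 5 endothelium and 0 of 4 fat cell markers, against 49.6% of all probe sets. The part of cell composition in the Hox values was not tested.

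Genes around the clusters were read as a local comparison. The 3 nearest measured protein-coding genes on either side of each cluster gave 24 neighbours. None passed limma, against 2.08% of all probe sets. Their differences ran from -0.20 (Snx10, beside Hoxa) to 0.21 (Hnrnpa2b1, beside Hoxa), with a median of -0.0285. The groups did not overlap for 4 of the 24, 2 higher and 2 lower, against 12.5% and 7.82% of all probe sets. Without mutant replicate 3 the median was -0.0353 and none was called, against 14.2% of all probe sets. Beside the Hoxc cluster, Calcoco1, Atf7 and Npff on the Hoxc13 side differed by -0.067, -0.074 and 0.15, and Smug1, Cbx5 and Nfe2 on the other by -0.14, 0.044 and 0.11. Evx1 and Evx2, homeobox genes at the group 13 ends of Hoxa and Hoxd, differed by -0.027 and -0.09. The other neighbours were Skap2, Hibadh and Tax1bp1 at Hoxa, Ttll6, Calcoco2, Atp5g1, Skap1, Snx11 and Cbx1 at Hoxb, and Lnpk, Atp5g3, Mtx2, Nfe2l2 and Agps at Hoxd.

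Proteins that work with Hox factors or set their expression were read as lists. None of 10 measured TALE homeodomain genes, which encode the DNA-binding partners of Hox proteins and relatives, passed limma, with a median of 0.113 and 4 members higher without overlap, against 12.5% of all probe sets. Meis1, a partner of Hox proteins of many groups, read 6.17, 6.32 and 6.53 in wild type and 6.97, 7.07 and 6.57 in mutant skin, a difference of 0.52 (limma adjusted p = 0.16). Tgif1, a repressor of the same superclass, had the smallest p of the list (0.36, limma adjusted p = 0.107), and Meis2 differed by 0.25 (limma adjusted p = 0.675). Without mutant replicate 3 the median was 0.126, and 3 of the 10 (Meis1, Meis2 and Tgif1) were called higher and none lower, against 7.95% of all probe sets called higher and 6.23% lower in that fit.

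None of 16 Polycomb genes, which keep Hox genes silent, passed, with a median of 0.0702 and the smallest p at Phc1 (-0.16, limma adjusted p = 0.35). None of 11 Trithorax and Cdx genes, which activate Hox genes, passed either, with a median of 0.0107 and the smallest p at Kmt2a (0.21, limma adjusted p = 0.30). The medians without mutant replicate 3 were 0.0622 and -0.00817, and 2 of the 16 Polycomb genes (Bmi1 and Rbbp7) and no Trithorax or Cdx gene were called higher, against 7.95% of all probe sets. None of either list was called lower.

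Of 15 genes of retinoic acid, a signal that induces Hox genes in the embryo, 1 was called lower and 0 higher. Over all probe sets 1.6% were called lower and 0.478% higher. The groups did not overlap for 5 genes that were lower and 2 that were higher, against 7.82% and 12.5% of all probe sets. Aldh1a3, an enzyme that makes retinoic acid, read 8.27, 8.26 and 8.38 in wild type and 7.41, 7.42 and 7.80 in mutant skin, and the groups did not overlap. It fell by 0.76 (SE 0.12, limma adjusted p = 0.02). Without any 1 of the arrays other than mutant replicate 3 it did not pass (limma adjusted p from 0.0846 to 0.112, differences from -0.69 to -0.79), nor did it without variance moderation (adjusted p = 0.176). Stra6, a membrane transporter for retinol, read 7.95, 7.88 and 7.91 in wild type and 6.39, 6.65 and 7.54 in mutant skin, a difference of -1.05 that did not pass limma (adjusted p = 0.112). Cyp26b1, which breaks retinoic acid down, differed by 0.38 (limma adjusted p = 0.144). Both were chosen after their values were seen. The median of the list was -0.0963, and -0.221 without mutant replicate 3. In that fit 4 of the 15 (Aldh1a3, Stra6, Crabp1 and Crabp2) were called lower, against 6.23% of all probe sets, and Cyp26b1 was called higher, against 7.95%.

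Among 18 other transcription factors of body position and limb identity none passed, with a median of 0.0942. Lhx2, a LIM homeobox gene of follicle stem cells and limb buds, had the smallest p (0.54, limma adjusted p = 0.195). The median was 0.0404 without mutant replicate 3, and in that fit 7 of the 18 (Emx2, Lhx2, Meox2, Prrx1, Prrx2, Tbx15 and Tbx18) were called higher, against 7.95% of all probe sets, and none lower.

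**Figure D4:**
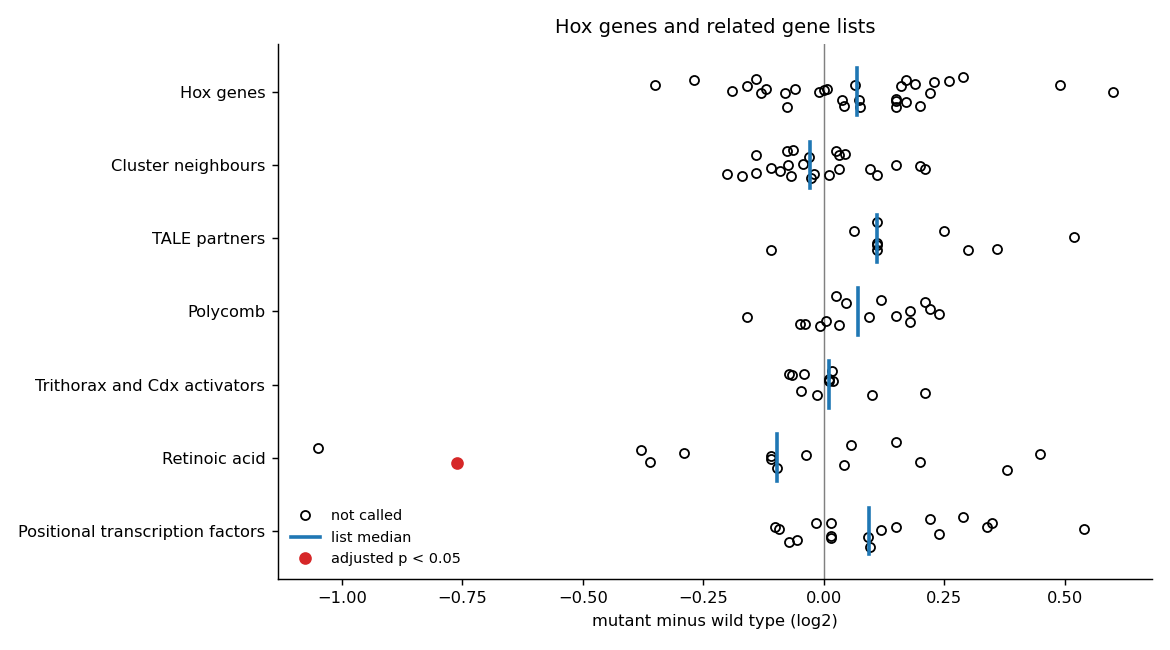
Mutant minus wild type difference (log2, horizontal axis) of the Hox genes, the cluster neighbours and related gene lists (vertical axis, points spread at random within a list), over all 6 arrays. Each point is a gene, blue bars are list medians and the filled point is the gene past the threshold, Aldh1a3 at -0.76. The Hox genes lie between -0.35 and 0.60.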

How the data were processed

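RNA of 6 skin samples was read on Affymetrix arrays. Per the labels' protocols, an oligo(dT) primer and a one-cycle amplification were used, which favours transcript 3′ ends. The authors deposited log2 levels computed by RMA, as the submitters' processing notes name it, with no version stated. RMA gives every array the same distribution and hides any shift shared by all genes. Arrays have no read depth, and their number limits the precision.

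Of 16395 probe sets, 64 controls were left out. The array annotation gave 1 symbol for 15644 of the rest, several for 0 and none for 687. The comparison used limma 3.58.1 (R 4.3.3) with lmFit and eBayes, two-sided, without block or filter. In simulated data it recovered 65.4% of added log2 differences of 0.5 and 97.7% of those of 1, with 5.35% of calls false. The simulated arrays shared the same spread and none deviated as mutant replicate 3 did. The simulation thus does not cover the effect of that array. Its noise came from the moderated variances, and recovery was averaged over probe sets drawn from the whole array. Hox genes had larger median SDs than all probe sets (0.121 against 0.0825 in wild type, 0.157 against 0.121 in mutant skin). Recovery for Hox genes alone was not computed. The design text calls the skin samples of each group independent, but no animal is named, so the p-values reflect only how far these samples spread, which may be technical.

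The members and lists were chosen with earlier results of these data known. Per-array values are given for all Hoxc members, the other group 13 genes, and the 5 members with the smallest p. From each related list the called members or the smallest p were named, with Meis1, Meis2 and all cluster neighbours. Other genes carry a remark where they are named. Alternatives were a filter, other normalisations, array weights, other variance models, a replicate block and leaving out each array. Figures used Python 3.11.15 and matplotlib 3.10.9.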

Additional observations from a re-analysis of the deposited data

How the results depend on the processing

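The count of Hox genes called was 0 higher and 0 lower with all arrays. It stayed so under a filter on low mean levels, an intensity trend with a robust prior, no variance moderation and a test against a log2 difference of 0.2. Repeated quantile normalisation and centring also left it at 0 and 0. All arrays already had the same median (7.405) after RMA, so centring changed nothing and the repeat very little. With array weights 3 were higher (Hoxa2, Hoxc4 and Hoxd9) and 0 lower, against 6.37% and 5.14% of all probe sets. That fit nearly leaves out mutant replicate 3 (weight 0.234). Leaving out single arrays gave 0 to 3 higher and 0 to 1 lower. The highest of each came without mutant replicate 3, where 7.95% and 6.23% of all probe sets were called. Calls over all probe sets went from 339 to 1880 with array weights, 84 without variance moderation, 164 against a log2 difference of 0.2, and 151 to 2316 without single arrays. With the replicate number as a block, 0 Hox genes and 197 probe sets were called. Same-numbered arrays did not deviate together (correlations 0.036, -0.119 and -0.087, and 0 of 6 arrays correlated best with their own number), so the numbers are not taken as pairs.

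Members with differences near 0 changed sign. With array weights Hoxa5 was at -0.096, Hoxa7 at -0.065, Hoxa9 at -0.13, Hoxb8 at -0.17, Hoxc6 at -0.017 and Hoxc9 at -0.028, and with repeated quantile normalisation Hoxb8 was at -0.00031. Over fits without single arrays, Hoxa5 ranged from -0.14 to 0.27, Hoxa7 from -0.15 to 0.42, Hoxa9 from -0.17 to 0.16, Hoxb2 from -0.001 to 0.14, Hoxb8 from -0.23 to 0.32, Hoxc6 from -0.042 to 0.15, Hoxc9 from -0.058 to 0.15, Hoxc10 from -0.44 to 0.069, Hoxd11 from -0.05 to 0.14 and Hoxd12 from -0.042 to 0.055. None of these passed in any such fit. Hoxb6 ranged from -0.66 to -0.048 and Hoxc4 from 0.081 to 0.47 with no change of sign, and each passed only without mutant replicate 3 among these fits.

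The number of Hox genes above the reference level in wild type skin was 13, and 24 against the highest Y-linked probe set. It was 18 against the 75th percentile of the reference genes, 12 against their maximum and 13 to 14 without single wild type arrays. The counts of 11 for groups 6 to 10 were the same after repeated quantile normalisation and centring. RMA had already aligned the arrays, so these counts could hardly move, and this is no test of the pattern. The alternatives for groups 6 to 10 were chosen after seeing the data, as were the medians without mutant replicate 3. Those for the reference level were planned, on lists chosen with earlier results of these data known.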
